A study of Mus musculus with 7 samples.

Results

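The 33 genes described here act in fatty acid oxidation: 7 belong to the carnitine shuttle, 4 encode acyl-CoA synthetases, 10 encode enzymes of mitochondrial beta-oxidation, 3 encode the electron transfer flavoprotein and its dehydrogenase, 6 encode enzymes of peroxisomal beta-oxidation and 3 are transcriptional regulators. They were taken by gene symbol out of tables of 50600 genes, all 33 were found, and all 33 passed the filter on low counts. RNA was sequenced from 4 mammary tumours of ECD transgenic mice (2 adenosquamous carcinomas, 1a and 1b, a spindle cell carcinoma, 3, and a papillary carcinoma, 4) and from 3 control mammary glands (1, 2 and 3). Tumour RNA came from a piece of the centre of each tumour. Ecd (ecdysoneless) encodes a regulator of the cell cycle. The sources used here give neither the promoter and species of the transgene nor the genotype of the control mice, and no strain or age.

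A fatty acid is first joined to coenzyme A by an acyl-CoA synthetase. Long chains then enter the mitochondrion as carnitine esters, a step that the outer-membrane enzyme carnitine palmitoyltransferase 1 limits and malonyl-CoA blocks. Inside, each turn of beta-oxidation shortens the chain by an acetyl unit and passes electrons through the electron transfer flavoprotein to the respiratory chain, whereas peroxisomes shorten very long and branched chains with their own enzymes. The mammary gland lies within a fat pad, and fat cells, muscle and epithelium differ in which of these genes they use.

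The counts per library totalled between 5420562 and 28638143 in the 4 tumours and between 5148438 and 35631279 in the 3 glands. Levels are given as CPM (TMM-scaled counts per 1000000), and levels of different genes are compared only per kb of exon. Genes of the mitochondrial genome took 18.3% to 32.6% of counts in the tumours and 48.4% to 64.8% in the glands. The sum of 12 fat cell markers was 22.9 to 195 CPM in the tumours and 2844 to 9190 CPM in the glands. Adipoq, the fat cell hormone adiponectin, was at 7.24, 0.136, 0 and 0.0697 CPM in tumours 1a, 1b, 3 and 4, against 315, 358 and 381 CPM in glands 1, 2 and 3. The sum of 15 skeletal muscle markers was 2.26 to 359.7 CPM in the tumours, against 18718, 34.7 and 37146 CPM in glands 1, 2 and 3, so that glands 1 and 3 held muscle transcripts and gland 2 held few. The sum of 6 epithelial markers was 1034 to 1512 CPM in the tumours and 178 to 303 CPM in the glands, and the epithelial adhesion gene Epcam was present in every library, at 59.2 to 214 CPM in the tumours and 51.7 to 119.9 CPM in the glands. In such bulk samples, fewer cells of a type and less RNA per cell cannot be told apart. The labels do not say whether tumours 1a and 1b came from different animals, so the p-values measure the spread between these samples, which may in part be technical.

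The series' title sets tumours against control glands, and many of the mitochondrial genes of fatty acid oxidation were lower in the tumours. Of the 33 genes, 12 were lower in the tumours at an adjusted p under 0.05, none was higher, and 21 did not pass. Over all 14149 genes tested, 4.57% were called lower and 3.9% were called higher. The median log2 fold change was -1.35 over the 33 genes and 0.12 over all genes tested. The genes called lower were 4 of the 7 of the carnitine shuttle, 6 of the 10 of mitochondrial beta-oxidation and 2 of the 3 of the electron transfer flavoprotein group. None of the 4 synthetases, the 6 peroxisomal genes or the 3 regulators was called by edgeR. In those 3 groups, 1, 1 and 2 genes were lower at an unadjusted p under 0.05, DESeq2 called Ppara and Ppargc1a, and limma-voom called Acsl1 and Ppargc1a, where DESeq2 called 24.1% and limma-voom 10.8% of all genes. At an unadjusted p under 0.05, 19 of the 33 were lower and 1, Cpt1a, was higher, where 13.1% of all genes were lower and 15.8% were higher. In 18 of the 33 genes every tumour lay below every gland, and in none did every tumour lie above every gland, where 13.2% of all genes tested lay wholly below and 16.3% wholly above.

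**Figure D1:**
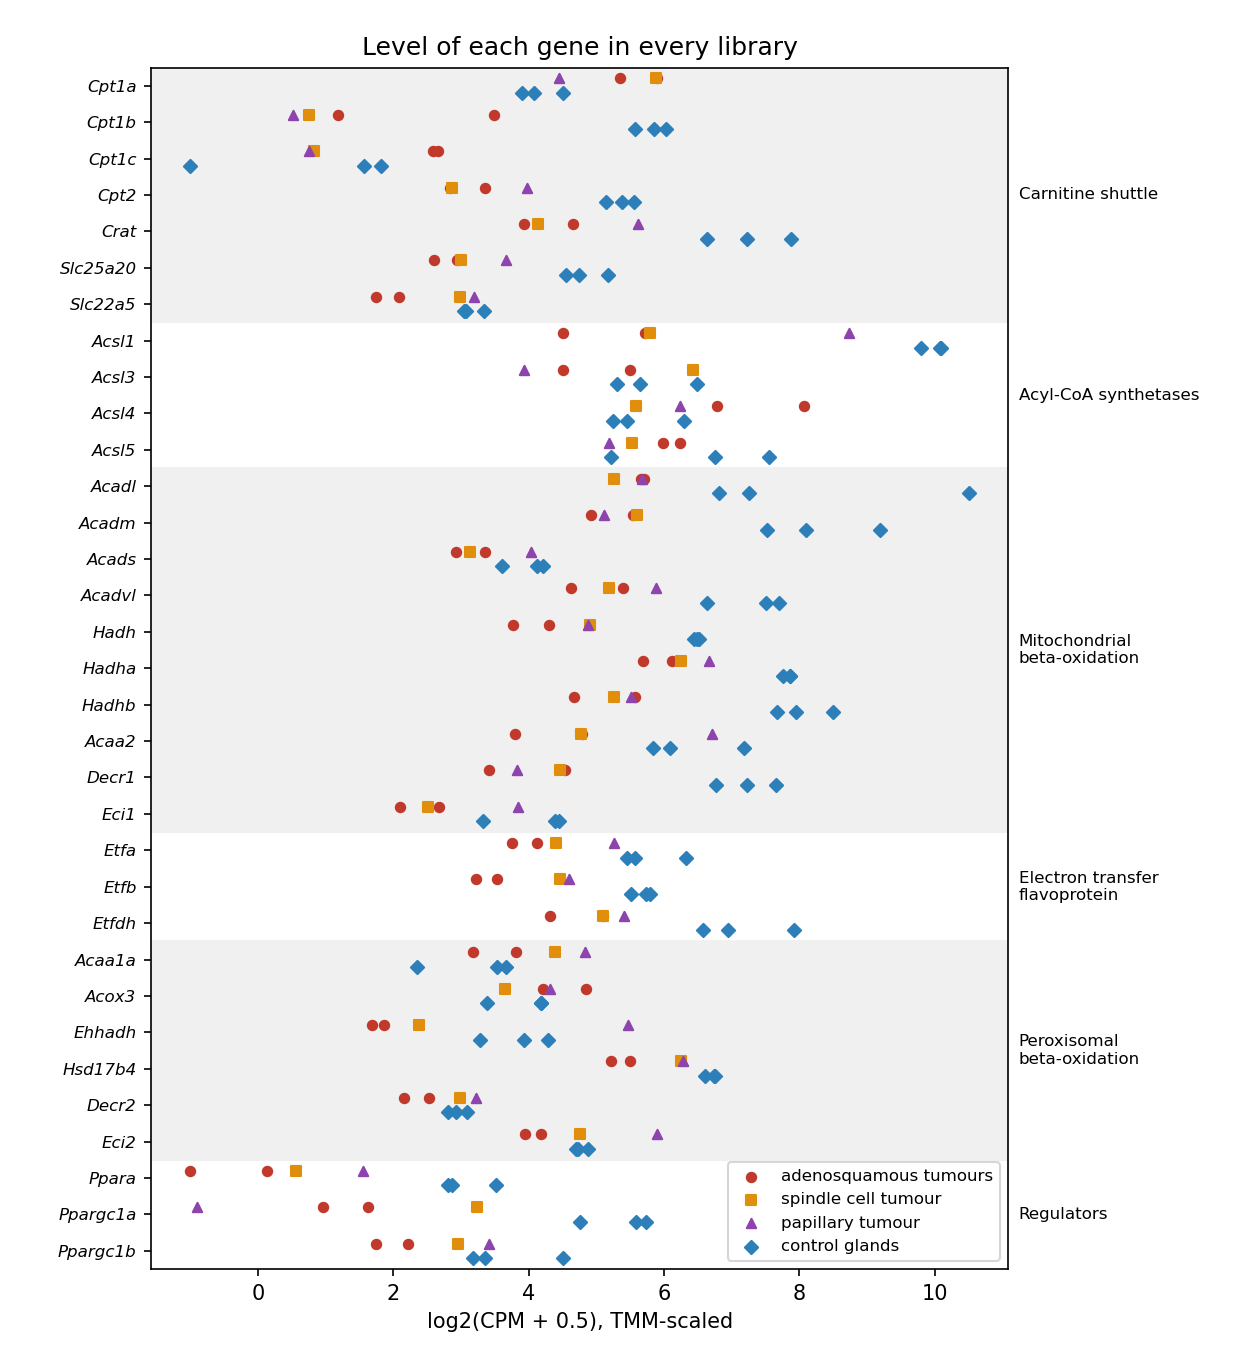
Level of each of the 33 genes in every library, as log2 of CPM plus 0.5 on the horizontal axis, with genes grouped by role down the page and 1 marker per library. For Hadhb, Decr1 and Acadm the 4 tumours lie well to the left of the 3 glands, while for the peroxisomal genes Eci2 and Ehhadh the papillary tumour lies to the right of all glands.

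The count of genes called depended on which libraries were used. It was 8 without tumour 1a, 4 without tumour 1b, 5 without the spindle cell tumour and 20 without the papillary tumour, where 5.9%, 2.7%, 3.84% and 9.88% of all genes tested were called in either direction. It was 4, 6 and 3 without glands 1, 2 and 3, where 2.38%, 3.85% and 0.654% of all genes were called, so the calls over all genes moved as well. Decr1, Acadm and Hadhb were called whichever library was left out. The other 9 each missed the threshold without at least 1 library. None of the 12 changed direction under any of the 15 alternatives tried.

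**Figure D2:**
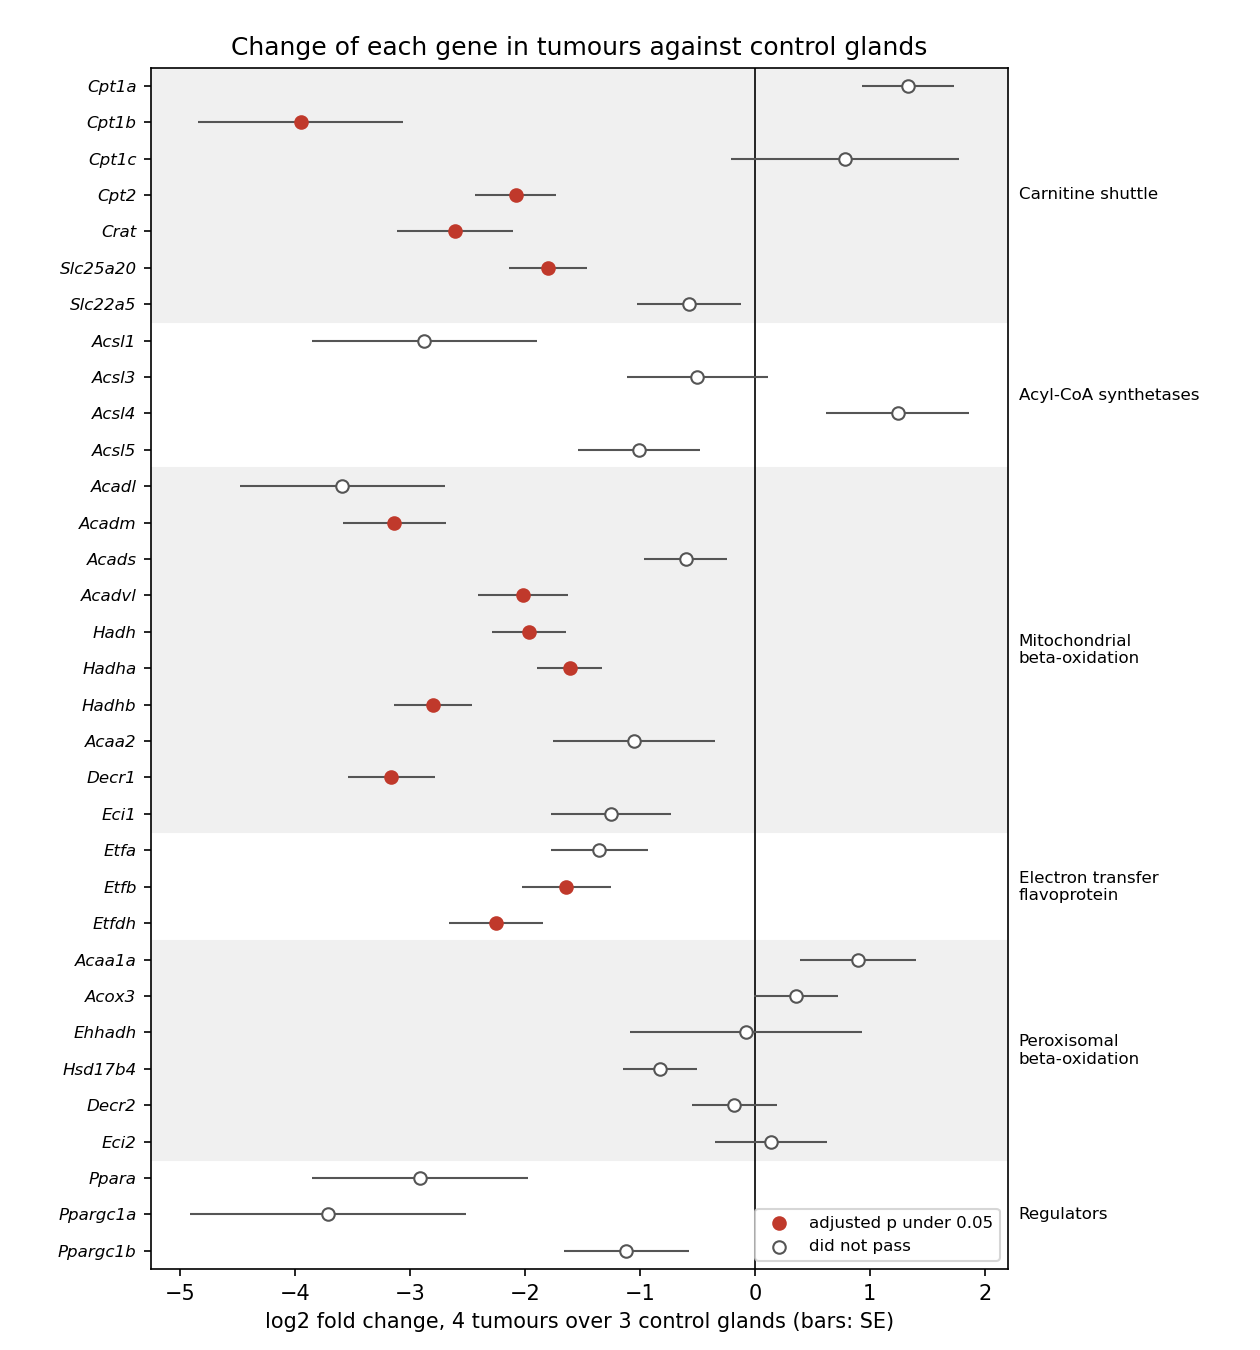
Log2 fold change of each gene, 4 tumours over 3 control glands, on the horizontal axis, with bars of 1 standard error (SE) of the fit. Filled points are the 12 genes with an adjusted p under 0.05, all to the left of 0, and the 6 peroxisomal genes scatter around 0, from -0.82 for Hsd17b4 to 0.90 for Acaa1a.

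In the carnitine shuttle, the 3 genes of carnitine palmitoyltransferase 1 did not move together. Cpt1b, the form of muscle and of brown fat (chromosome 15, 89416405 to 89425863, GRCm38), was at 10.7, 1.77, 1.18 and 0.941 CPM in tumours 1a, 1b, 3 and 4, against 65.1, 47.1 and 57.5 CPM in glands 1, 2 and 3. Every tumour lay far below every gland, with tumour 1a the highest of the tumours. Cpt1b averaged 3.65 ± 4.73 CPM in the tumours (SD, n = 4) and 56.6 ± 9.03 CPM in the glands (SD, n = 3), 15.4-fold lower in the tumours (log2 -3.95, SE 0.89, adjusted p = 0.0389). It was called without tumour 1a (log2 -5.44) and without the papillary tumour, but not without any other single library. Gland 2, whose muscle marker sum was 34.7 CPM, held 47.1 CPM of Cpt1b. Its sum of 7 brown fat markers was 494 CPM, against 542 and 137 CPM in glands 1 and 3. With gland 2 as the only control the log2 fold change of Cpt1b was -3.76 (not called). The part of muscle and of brown fat in the Cpt1b of the glands was not tested. Of the 3372 exon bases of Cpt1b, 2744 are also exon of the gene model Gm44502 on the same strand, so the 2 share reads.

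Cpt1a, the form of liver and of most other tissues (chromosome 19, 3322334 to 3385733), was at 59.1, 40.3, 58.3 and 21.4 CPM in tumours 1a, 1b, 3 and 4, against 14.5, 16.4 and 22.2 CPM in glands 1, 2 and 3. The adenosquamous and spindle cell tumours lay above all glands, and the papillary tumour lay within the range of the glands. Its difference over all tumours did not pass (log2 1.33, SE 0.40, adjusted p = 0.0815), but passed by DESeq2 (adjusted p = 0.0188) and without the papillary tumour (log2 1.51, adjusted p = 0.0256). Over all alternatives its adjusted p ran up to 0.581, with gland 2 as the only control. Cpt1c, the form of the brain, was at 5.53, 5.85, 1.28 and 1.19 CPM in tumours 1a, 1b, 3 and 4, against 0, 2.46 and 3.03 CPM in glands 1, 2 and 3. The 2 adenosquamous tumours were above all glands and the other tumours were not. The 0 in gland 1 allows up to 1.06 CPM (3 counts), and the difference did not pass (log2 0.78, SE 0.99, adjusted p = 0.632).

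Set side by side per kb of exon, Cpt1a made up 64.97%, 77.1%, 92.9% and 85.1% of the level summed over the 3 genes in tumours 1a, 1b, 3 and 4, against 8.95%, 12.9% and 14.2% in glands 1, 2 and 3. Cpt1b made up 26.7%, 7.67%, 4.27% and 8.47% in tumours 1a, 1b, 3 and 4, against 91.0%, 84.4% and 83.2% in glands 1, 2 and 3. By this measure Cpt1a was the more abundant form in every tumour and Cpt1b in every gland. The shares depend on the exon lengths used and on how reads shared by Cpt1b and Gm44502 were divided. The summed level was 7.56 ± 3.56 CPM per kb in the tumours (SD, n = 4) and 19.4 ± 2.51 CPM per kb in the glands (SD, n = 3), lowest at 3.29 CPM per kb in the papillary tumour.

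**Figure D3:**
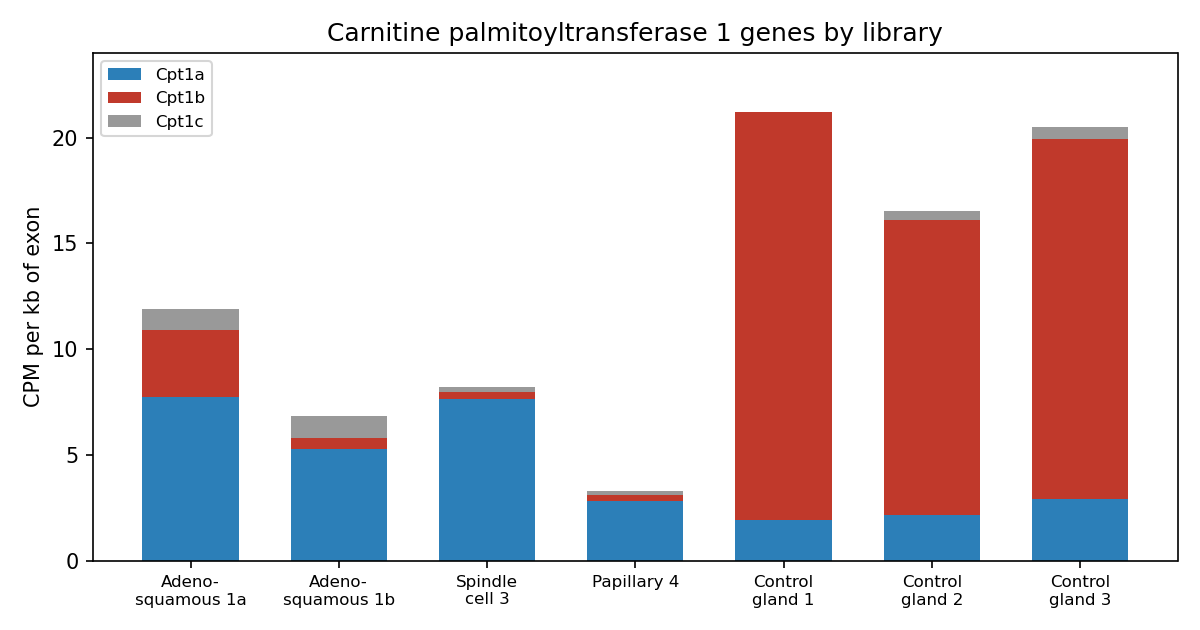
Stacked bars of the level of Cpt1a, Cpt1b and Cpt1c in each library, in CPM per kb of exon on the vertical axis. In the 4 tumours most of each bar is Cpt1a, and in the 3 glands most of each bar is Cpt1b, whose share there is 83.2% to 91.0%. The level of Cpt1b depends on how reads shared with Gm44502 were divided.

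Cpt2, Slc25a20 and Crat, also of the shuttle, fell, and Slc22a5 did not pass. Cpt2, which turns the carnitine ester back into acyl-CoA inside the mitochondrion, was at 9.70, 6.67, 6.80 and 15.3 CPM in tumours 1a, 1b, 3 and 4, against 41.0, 35.0 and 46.4 CPM in glands 1, 2 and 3 (log2 -2.08, SE 0.35, adjusted p = 0.0174). Slc25a20, the carrier that exchanges acylcarnitine for carnitine across the inner membrane, was at 7.15, 5.58, 7.49 and 12.2 CPM in tumours 1a, 1b, 3 and 4, against 23.0, 35.4 and 26.3 CPM in glands 1, 2 and 3 (log2 -1.80, SE 0.34, adjusted p = 0.0241). Crat, which transfers short acyl groups to carnitine, was at 24.6, 14.7, 17.0 and 48.7 CPM in tumours 1a, 1b, 3 and 4, against 98.7, 149.6 and 234 CPM in glands 1, 2 and 3 (log2 -2.61, SE 0.50, adjusted p = 0.0260). In all 3 genes the papillary tumour was the highest of the tumours and still below every gland. Slc22a5, the plasma membrane carnitine transporter, did not pass (log2 -0.57, SE 0.45, adjusted p = 0.433), at 2.86 to 8.68 CPM in the tumours and 7.78 to 9.62 CPM in the glands.

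Of the 4 long-chain acyl-CoA synthetases none was called, and they differed in direction. Acsl1, the main synthetase of fat cells, was at 52.4, 22.3, 55.1 and 426 CPM in tumours 1a, 1b, 3 and 4, against 885, 1089 and 1081 CPM in glands 1, 2 and 3. Every tumour was below every gland, but the papillary tumour was far closer to the glands than the other tumours were, and the difference did not pass (log2 -2.87, SE 0.98, adjusted p = 0.109). It passed without the papillary tumour, with a log2 fold change of -4.62. Acsl4, which prefers polyunsaturated fatty acids, was at 109.5, 267, 47.5 and 75.2 CPM in tumours 1a, 1b, 3 and 4, against 77.8, 43.4 and 37.4 CPM in glands 1, 2 and 3 (log2 1.24, SE 0.62, adjusted p = 0.227), and only the 2 adenosquamous tumours lay above all glands. Acsl3 (log2 -0.50, SE 0.62) and Acsl5 (log2 -1.01, SE 0.53) overlapped between the groups.

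Among the 10 genes of mitochondrial beta-oxidation, 6 fell and the fitted log2 fold change of the other 4 was also below 0. The clearest were a dehydrogenase, a subunit of the trifunctional protein and an accessory reductase. Acadm, the medium-chain acyl-CoA dehydrogenase (chromosome 3, 153922357 to 153944632), was at 46.2, 29.8, 48.1 and 34.0 CPM in tumours 1a, 1b, 3 and 4, against 586, 273 and 184 CPM in glands 1, 2 and 3. The tumours lay close together and the glands were spread, with gland 1 the highest. Acadm was 8.79-fold lower in the tumours (log2 -3.14, SE 0.45, adjusted p = 0.0114). Decr1, the reductase that allows polyunsaturated fatty acids to be oxidised (chromosome 4, 15917240 to 15945507), was at 22.6, 10.2, 21.6 and 13.7 CPM in tumours 1a, 1b, 3 and 4, against 200.2, 149 and 108 CPM in glands 1, 2 and 3. Every tumour was below every gland by a wide margin, and the fold change was 8.94-fold lower in the tumours (log2 -3.16, SE 0.38, adjusted p = 0.00887).

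Hadha and Hadhb encode the alpha and beta subunits of the mitochondrial trifunctional protein, which carries out the later steps of each turn on long chains. Hadhb (chromosome 5, 30155248 to 30184593) was at 47.2, 25.0, 38.0 and 45.2 CPM in tumours 1a, 1b, 3 and 4, against 362, 247 and 204 CPM in glands 1, 2 and 3 (log2 -2.80, SE 0.34, adjusted p = 0.00887). Hadha (chromosome 5, 30118304 to 30155162) was at 69.3, 51.2, 75.7 and 101 CPM in tumours 1a, 1b, 3 and 4, against 232, 231 and 216 CPM in glands 1, 2 and 3 (log2 -1.61, SE 0.28, adjusted p = 0.0196). Both subunits were below all glands in every tumour, and the fold change was larger for the beta subunit, 6.97-fold against 3.05-fold, a difference between the genes that was not tested. Per kb of exon, the tumours averaged 5.89 CPM of Hadhb and 8.50 CPM of Hadha, and the glands averaged 41.1 CPM of Hadhb and 25.9 CPM of Hadha. By this measure the subunit with the higher mean was Hadha in the tumours and Hadhb in the glands. The ranking depends on the lengths used, all annotated exon bases of each gene (8730 for Hadha and 6595 for Hadhb). The lengths of the transcripts present were not measured.

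Genome sequence before the starts of these genes is shown because Hadha and Hadhb stand head to head and fell together, and because the windows of Acadm and Etfb hold motifs of known regulators of mitochondrial genes. The sequences are from RefSeq on GRCm38.p6, which gave windows of 250 bases before the start for 27 of the 33 genes. Cpt1b, Crat, Acaa2, Hsd17b4, Decr1 and Ppargc1b had no entry. The first is the 85 bases between the annotated starts of Hadha and Hadhb (chr5:30155163-30155247, plus strand, read towards Hadhb). The second is the window of Acadm (chr3:153944644-153944893, minus strand), with TGACCTT in capitals, the reverse strand of AAGGTCA, the extended half-site bound by estrogen-related receptors. The third is the window of Etfb (chr7:43443822-43444071, plus strand), with a match to the site of the nuclear respiratory factor NRF1 in capitals, read as GCGCA, any base and GCGC.
between Hadha and Hadhb: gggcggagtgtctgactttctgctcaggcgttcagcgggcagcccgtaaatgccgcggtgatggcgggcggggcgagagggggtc
Acadm: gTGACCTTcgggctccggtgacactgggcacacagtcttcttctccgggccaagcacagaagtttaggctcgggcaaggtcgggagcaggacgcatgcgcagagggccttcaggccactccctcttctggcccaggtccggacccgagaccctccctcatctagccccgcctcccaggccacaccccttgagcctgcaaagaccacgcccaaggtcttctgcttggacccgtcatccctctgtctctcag
Etfb: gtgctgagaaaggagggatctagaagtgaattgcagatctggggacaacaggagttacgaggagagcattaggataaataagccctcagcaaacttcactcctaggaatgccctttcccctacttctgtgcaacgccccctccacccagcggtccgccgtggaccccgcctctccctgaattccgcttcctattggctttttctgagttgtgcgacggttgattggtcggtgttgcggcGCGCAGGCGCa
Searched on both strands, AAGGTCA was found in 1 of the 28 windows of these genes, that of Acadm, and in 4.08% of all 32851 windows. The NRF1 site was found in 4 of the 28, those of Etfb, Etfdh, Slc22a5 and Ppara, and in 3.74% of all windows. The direct repeat of AGGTCA with 1 base between the copies, bound by peroxisome proliferator-activated receptors with retinoid X receptors, was in none of the 28 and in 0.0335% of all windows. Of the 28 windows, 15 held no exon annotated in GENCODE. These are matches of letters in short windows and say nothing of binding.

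Acadvl and Hadh fell as well. Acadvl, the dehydrogenase of very long chains, was at 41.8, 24.1, 35.96 and 58.8 CPM in tumours 1a, 1b, 3 and 4, against 207, 182 and 98.9 CPM in glands 1, 2 and 3 (log2 -2.02, SE 0.39, adjusted p = 0.0258). It shares 1151 of its 2686 exon bases with Dvl2 on the opposite strand, and reads of the 2 genes cannot be told apart there, since the library kit does not mark the strand. Hadh, the dehydrogenase of shorter hydroxyacyl chains, was at 19.2, 13.2, 29.7 and 29.0 CPM in tumours 1a, 1b, 3 and 4, against 86.7, 88.9 and 91.2 CPM in glands 1, 2 and 3 (log2 -1.97, SE 0.32, adjusted p = 0.0156). The glands lay close together for Hadh, and all tumours were far below them. Acads, the short-chain dehydrogenase, did not pass and overlapped, at 7.07 to 16.0 CPM in the tumours and 11.7 to 18.0 CPM in the glands (log2 -0.60, SE 0.36, adjusted p = 0.304).

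Acadl, the long-chain dehydrogenase, was the member on which the glands differed most. It was at 49.9, 51.8, 38.0 and 50.8 CPM in tumours 1a, 1b, 3 and 4, against 1455, 152 and 112 CPM in glands 1, 2 and 3. All tumours were below all glands, and gland 1 was 11.0 times the mean of the other glands. The difference did not pass over all libraries (log2 -3.59, SE 0.89, adjusted p = 0.0507), and without gland 1 it was smaller and passed (log2 -1.46, adjusted p = 0.0488). Gland 1 was also the highest gland for 16 of the 33 genes. The same share over all genes was not counted, and gland 1 had the fewest counts of all libraries, 5148438. The sum of 7 brown fat markers was 8.37 to 95.2 CPM in the tumours, against 542, 494 and 137 CPM in glands 1, 2 and 3. Cox7a1, Cidea and Dio2 were highest in gland 1 and the other 4 were not, and Cox7a1, a subunit of cytochrome oxidase in muscle and brown fat, was at 4.60, 0.408, 0.591 and 0.697 CPM in tumours 1a, 1b, 3 and 4, against 98.0, 26.8 and 25.8 CPM in glands 1, 2 and 3. The part of brown fat in the high Acadl of gland 1 was not tested. Ucp1, the uncoupling protein, was at 43.3, 0.408, 0 and 0 CPM in tumours 1a, 1b, 3 and 4, against 229.9, 305 and 37.3 CPM in glands 1, 2 and 3. Acaa2, the thiolase (27.2, 13.5, 26.8 and 105 CPM in tumours 1a, 1b, 3 and 4, against 145, 56.8 and 67.3 CPM in glands 1, 2 and 3), and Eci1, the enoyl-CoA isomerase, did not pass (log2 -1.05, SE 0.71, adjusted p = 0.357, and log2 -1.25, SE 0.52, adjusted p = 0.161). For both, the papillary tumour lay within the range of the glands and the other tumours lay below it.

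The electron transfer flavoprotein takes electrons from the acyl-CoA dehydrogenases, and its dehydrogenase passes them to ubiquinone. Etfdh, that dehydrogenase, was at 33.6, 19.5, 33.7 and 41.9 CPM in tumours 1a, 1b, 3 and 4, against 242, 123 and 94.7 CPM in glands 1, 2 and 3 (log2 -2.25, SE 0.41, adjusted p = 0.0220). Etfb, the beta subunit, was at 11.1, 8.84, 21.5 and 23.8 CPM in tumours 1a, 1b, 3 and 4, against 52.7, 55.1 and 45.0 CPM in glands 1, 2 and 3 (log2 -1.64, SE 0.39, adjusted p = 0.0432). Both fell, and every tumour lay below every gland. Etfb shares 617 of its 1164 exon bases with the gene model Gm45233 on the same strand. Etfa, the alpha subunit, lay below all glands in every tumour, at 12.9 to 37.9 CPM in the tumours and 43.2 to 79.9 CPM in the glands, but did not pass (log2 -1.35, SE 0.42, adjusted p = 0.0875).

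The 6 peroxisomal genes gave no call, and their median log2 fold change was 0.03. Hsd17b4, the bifunctional enzyme for branched and very long chains, lay below all glands in every tumour, at 36.9, 44.6, 75.9 and 77.3 CPM in tumours 1a, 1b, 3 and 4, against 108, 107 and 97.3 CPM in glands 1, 2 and 3 (log2 -0.82, SE 0.32, adjusted p = 0.142). Ehhadh, the other bifunctional enzyme, was at 3.15, 2.72, 4.73 and 43.7 CPM in tumours 1a, 1b, 3 and 4, against 9.20, 14.8 and 19.1 CPM in glands 1, 2 and 3. Here the adenosquamous and spindle cell tumours lay below all glands and the papillary tumour lay above them, at 3.05 times the gland mean, and over all tumours the log2 fold change was -0.08 (SE 1.01, adjusted p = 0.970). Without the papillary tumour Ehhadh was called lower, with a log2 fold change of -2.08. Eci2, an enoyl-CoA isomerase of peroxisomes, was also highest in the papillary tumour, at 17.7, 14.97, 26.6 and 59.1 CPM in tumours 1a, 1b, 3 and 4, against 26.2, 25.6 and 28.9 CPM in glands 1, 2 and 3 (log2 0.14, SE 0.49, adjusted p = 0.873). The adenosquamous tumours lay below all glands, the spindle cell tumour lay among them and the papillary tumour lay above them. Acaa1a, the peroxisomal thiolase, was at 8.60 to 27.9 CPM in the tumours and 4.60 to 12.2 CPM in the glands (log2 0.90, SE 0.50, adjusted p = 0.273), and its reads may be split with the near copy Acaa1b. Acox3, an oxidase of branched chains, and Decr2, the peroxisomal reductase, overlapped between the groups (log2 0.36, SE 0.37, and log2 -0.18, SE 0.37).

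Of the regulators, Ppara encodes the fatty acid receptor that drives oxidation genes in liver and brown fat, and Ppargc1a and Ppargc1b encode coactivators of mitochondrial genes. Ppara was at 0.596, 0, 0.985 and 2.44 CPM in tumours 1a, 1b, 3 and 4, against 11.0, 6.49 and 6.83 CPM in glands 1, 2 and 3. Every tumour lay below every gland, and the 0 in tumour 1b allows up to 0.408 CPM (3 counts). The difference did not pass (log2 -2.91, SE 0.94, adjusted p = 0.0950). Ppargc1a was at 1.45, 2.59, 8.97 and 0.0348 CPM in tumours 1a, 1b, 3 and 4, against 47.4, 26.5 and 52.6 CPM in glands 1, 2 and 3. Every tumour again lay below every gland, and the value of the papillary tumour is 1 count. It did not pass over all tumours either (log2 -3.71, SE 1.20, adjusted p = 0.0947). Both passed by DESeq2 and without the papillary tumour. Ppargc1b was at 4.17, 2.86, 7.29 and 10.1 CPM in tumours 1a, 1b, 3 and 4, against 22.3, 9.74 and 8.58 CPM in glands 1, 2 and 3 (log2 -1.12, SE 0.54, adjusted p = 0.218), with the papillary tumour within the range of the glands.

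The 2 adenosquamous tumours are the only tumour type with more than 1 library, and they were also set against the same 3 glands. Of the 33 genes, 17 were lower and 1 was higher at an adjusted p under 0.05, where 5.36% of all 14708 genes tested were lower and 5.01% were higher. The median log2 fold change was -2.21 over the 33 genes and -0.04 over all genes. The gene that rose was Cpt1a (log2 1.42, SE 0.31, adjusted p = 0.0445). It did not pass with any 1 library left out, nor in the fit of all 7 libraries in 4 groups (log2 1.47). Acsl1 fell, 28.4-fold lower in the adenosquamous tumours (log2 -4.83, SE 0.61, adjusted p = 0.0189), as did Ppargc1a (log2 -4.47, SE 0.53, adjusted p = 0.0183), Ppara (log2 -4.62, SE 1.05, adjusted p = 0.0468), Etfa (log2 -2.001, SE 0.42, adjusted p = 0.0404), and the peroxisomal genes Ehhadh (log2 -2.35, SE 0.44, adjusted p = 0.0307) and Hsd17b4 (log2 -1.42, SE 0.28, adjusted p = 0.0361). The other 11 that fell were Cpt2, Crat, Slc25a20, Acadm, Acadvl, Hadh, Hadha, Hadhb, Decr1, Etfb and Etfdh, with log2 fold changes from -3.29 for Decr1 to -1.98 for Hadha. Cpt1b did not pass here (log2 -3.22, SE 0.77, adjusted p = 0.0516), and tumour 1a held 10.7 CPM of it against 1.77 CPM in tumour 1b. In 26 of the 33 genes both adenosquamous tumours lay below all glands, where 23.3% of all genes did. The count of 18 called depended on single libraries: it was 1 without tumour 1a and 0 without tumour 1b, where 0.523% and 0% of all genes were called, and 8, 17 and 0 without glands 1, 2 and 3, where 4.2%, 10.8% and 0% were. No gene of any kind passed in the 2 fits with a count of 0, and without tumour 1a or 1b the remaining tumour is assumed to vary like the glands.

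Between the 3 tumour types, fitted in 4 groups with the glands, none of the 33 genes passed by edgeR, where 0.125% of all 16866 genes tested did. The spindle cell and papillary tumours are 1 library each and are assumed to vary like the glands and the adenosquamous pair. At an unadjusted p under 0.05 there were 9 of the 33, where 18.1% of all genes were. DESeq2 called 6, which were Acsl1, Acaa2, Etfb, Ehhadh, Eci2 and Ppargc1a, where it called 13.6% of all genes, and limma-voom called none (0% of all genes). Without gland 2, edgeR called 1, Ppargc1a, where 0.892% of all genes were called. The papillary tumour was the highest of the 4 tumours for 20 of the 33 genes. An adenosquamous tumour was the lowest of all 7 libraries for 23 of the 33. The same shares over all genes were not counted, so these counts are not read as particular to these genes. In the fit of all libraries the log2 difference of Ehhadh from the glands was -2.31 for the adenosquamous tumours, -1.59 for spindle cell tumour 3 and 1.64 for papillary tumour 4 (adjusted p between types = 0.0622). For Acsl1 it was -4.78 for the adenosquamous tumours, -4.18 for spindle cell tumour 3 and -1.20 for papillary tumour 4 (adjusted p between types = 0.0803). For Decr1 and Acadm the 3 types differed little, at -3.21, -2.78 and -3.41 for Decr1 and at -3.19, -2.81 and -3.28 for Acadm in adenosquamous, spindle cell and papillary tumours, with adjusted p between types of 0.873 and 0.948.

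**Figure D4:**
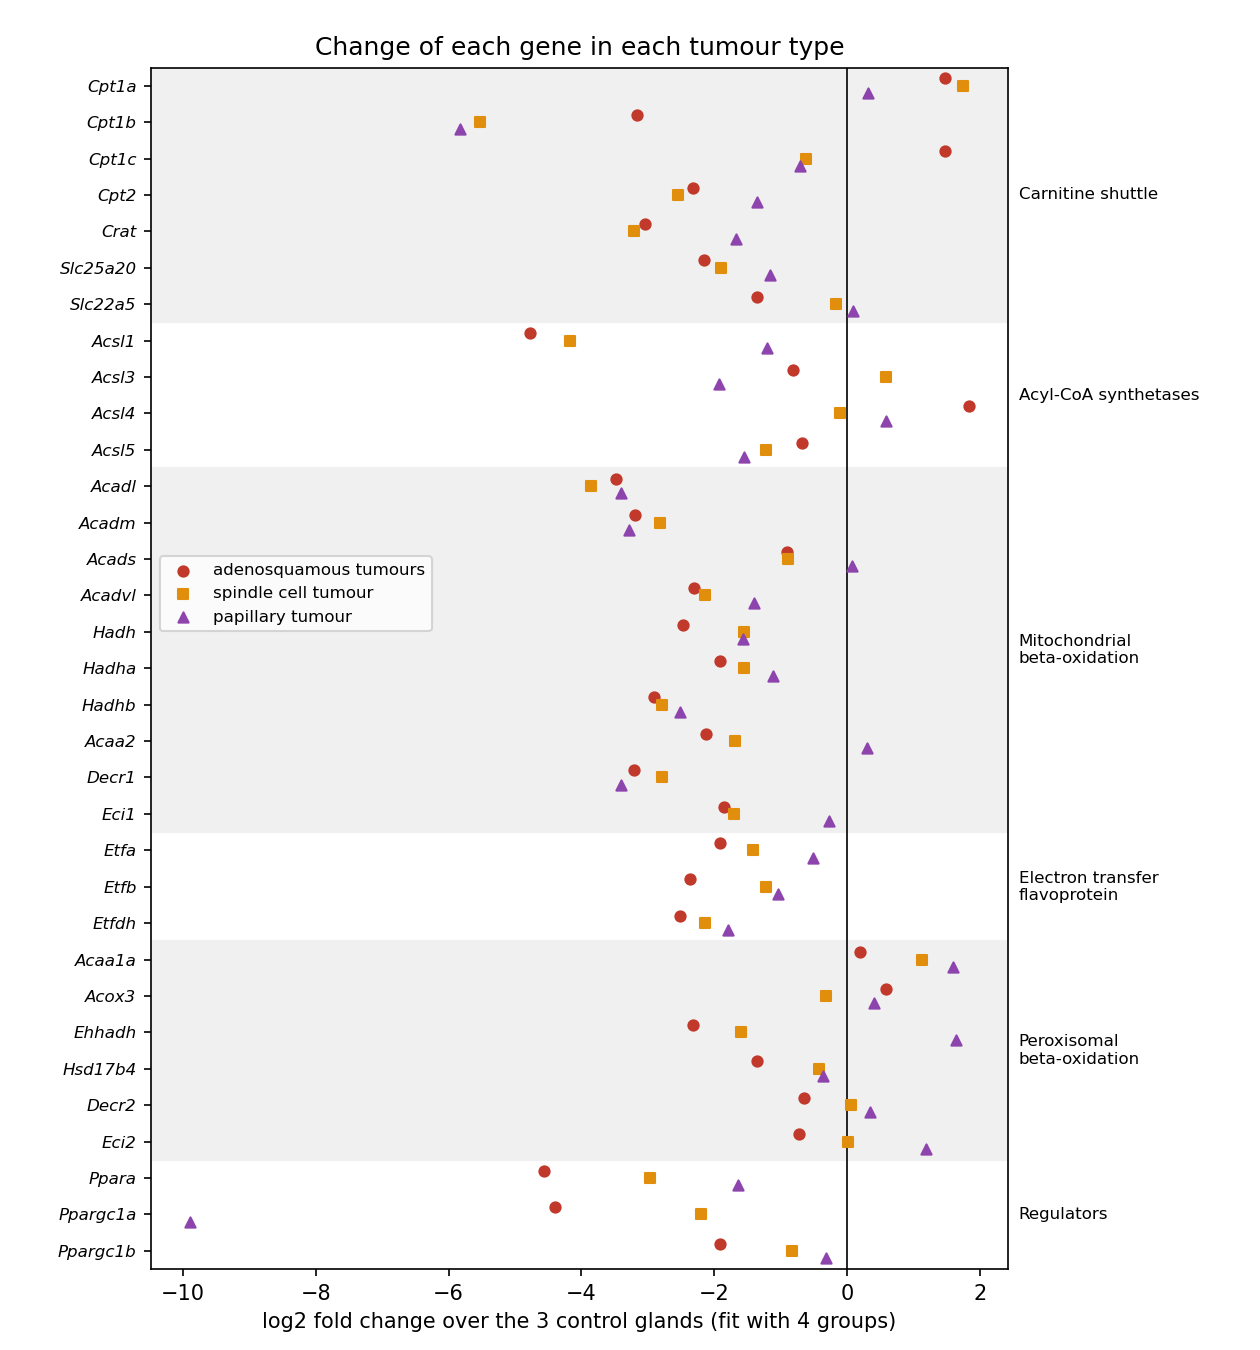
Log2 fold change of each gene over the 3 control glands in each tumour type, from the fit with 4 groups. The spindle cell and papillary points rest on 1 library each, the leftmost point, of Ppargc1a, rests on 1 count in the papillary tumour, and papillary points lie to the right of 0 for Ehhadh, Eci2 and Acaa1a among others.

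Genes that neighbour these in the pathway were counted in the same fit of all tumours against the glands. In that fit 4.57% of all 14149 genes tested were called lower and 3.9% were called higher. The median log2 fold change over all genes was 0.12. These shares stand beside every list below. Of 16 peroxins, which build peroxisomes, 3 were lower and none was higher, and their median log2 fold change was -0.12. Pex3 averaged 11.9 ± 2.24 CPM in the tumours (SD, n = 4) and 30.7 ± 4.05 CPM in the glands (SD, n = 3), with a log2 fold change of -1.36 (SE 0.26, adjusted p = 0.0236), and Pex13 also fell (log2 -1.57, SE 0.30, adjusted p = 0.0258). Pex26 had a log2 fold change of 1.33 that did not pass (adjusted p = 0.136). Of 24 tested genes of the peroxisomal matrix and membrane, 6 were lower and none was higher (median -0.90). Abcd2, a peroxisomal importer of very long fatty acids, averaged 1.97 ± 1.02 CPM in the tumours (SD, n = 4) and 218 ± 15.9 CPM in the glands (SD, n = 3), a log2 fold change of -6.80 (SE 0.50, adjusted p = 0.00612). Phyh, which starts the breakdown of phytanic acid, averaged 9.04 ± 1.95 CPM in the tumours and 81.3 ± 15.03 CPM in the glands (SD, n = 4 and 3; log2 -3.17, SE 0.28, adjusted p = 0.00675). Acot8, a peroxisomal thioesterase, had a log2 fold change of 1.57 that did not pass (adjusted p = 0.254).

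Of 17 other mitochondrial acyl-CoA enzymes, 6 were lower and none was higher (median -1.66), among them Hibch of valine breakdown (log2 -3.04, SE 0.42, adjusted p = 0.0109) and Mut, the methylmalonyl-CoA mutase (log2 -1.87, SE 0.27, adjusted p = 0.0124). Acad9, a dehydrogenase that also helps to assemble respiratory complex I, had a log2 fold change of 0.42 (adjusted p = 0.594). Of 5 genes of malonyl-CoA control, 2 were lower: Acacb, the acetyl-CoA carboxylase whose malonyl-CoA restrains carnitine palmitoyltransferase 1, averaged 14.996 ± 11.1 CPM in the tumours (SD, n = 4) and 289 ± 65.5 CPM in the glands (SD, n = 3; log2 -4.26, SE 0.71, adjusted p = 0.0168), and Acaca, the carboxylase of fatty acid synthesis, had a log2 fold change of -3.79 (SE 0.73, adjusted p = 0.0253). Of 8 genes of fatty acid uptake and binding, 1 was lower, Fabp4, the fat cell fatty acid binding protein (log2 -6.37, SE 1.12, adjusted p = 0.0196), and Slc27a3 had a log2 fold change of 2.67 that did not pass (adjusted p = 0.153). Over all genes tested, 4.57% were called lower.

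Of 10 tested target genes of peroxisome proliferator-activated receptors, 1 was lower, the lipid droplet gene Plin4 (log2 -7.38, SE 1.43, adjusted p = 0.0261), where 4.57% of all genes were. Plin5 and Acot1 did not pass (log2 -3.31, adjusted p = 0.0507, and log2 2.45, adjusted p = 0.134). None of 12 tested nuclear receptors and cofactors passed by edgeR. At an unadjusted p under 0.05, 1 was lower and 1 was higher, where 13.1% of all genes were lower and 15.8% were higher. Ppard, a receptor related to Ppara, averaged 20.2 ± 8.02 CPM in the tumours (SD, n = 4) and 6.34 ± 1.25 CPM in the glands (SD, n = 3; log2 1.66, SE 0.43, adjusted p = 0.0560). Pparg, the receptor of fat cell formation, averaged 6.04 ± 8.55 CPM in the tumours (SD, n = 4) and 92.4 ± 23.7 CPM in the glands (SD, n = 3; log2 -3.90, SE 1.03, adjusted p = 0.0588). Of 14 genes of general mitochondrial content, 5 were lower and none was higher (median -0.88). Idh3a and Sdha, of the citric acid cycle, fell (log2 -2.08, SE 0.23, adjusted p = 0.00835, and log2 -2.06, SE 0.25, adjusted p = 0.00905), and Tomm40, of the import pore, had a log2 fold change of 0.93 (adjusted p = 0.122).

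The summed level of the 33 genes was 872, 863, 901 and 1479 CPM in tumours 1a, 1b, 3 and 4, against 5405, 3449 and 3150 CPM in glands 1, 2 and 3. The sum of the 12 fat cell markers was 138, 22.9, 105 and 195 CPM in tumours 1a, 1b, 3 and 4, against 2844, 6884 and 9190 CPM in glands 1, 2 and 3. All tumours lay below all glands in both sums, while among the glands gland 1 had the highest sum of the 33 genes and the lowest of the fat cell markers. Abundant genes weigh heavily in such sums. Acadl held 1455 CPM in gland 1, and the fat cell marker Car3 was at 1210, 2232 and 5043 CPM in glands 1, 2 and 3. Of the fat cell markers 10 of 12 were called lower, where 4.57% of all genes were, whereas 0 of 15 muscle markers were called by edgeR. All 15 muscle markers were lower at an unadjusted p under 0.05, where 13.1% of all genes were lower. None of the 12 fat cell markers was at 0 in all tumours, and 3 in tumour 1b and 4 in the spindle cell tumour were at 0. Plin1, the fat cell lipid droplet coat, was at 9.53, 0.136, 0.0985 and 0.383 CPM in tumours 1a, 1b, 3 and 4, against 169.8, 350.2 and 269.5 CPM in glands 1, 2 and 3. The part of fat cells in the lower levels was not tested. For muscle, Ckm was at 10.3, 1.497, 0.0985 and 0.0348 CPM in tumours 1a, 1b, 3 and 4, against 319, 1.32 and 2224 CPM in glands 1, 2 and 3, and Acta1 was at 66.8, 10.7, 0.296 and 0.139 CPM in tumours 1a, 1b, 3 and 4, against 1068, 2.46 and 2678 CPM in glands 1, 2 and 3. Gland 2 was low in muscle markers only: its sum of 7 brown fat markers was 494 CPM, against 542 and 137 CPM in glands 1 and 3. Its sum of 6 macrophage markers was 429 CPM, against 135 and 132 CPM in glands 1 and 3. With gland 2, where these 2 muscle genes were at or under 2.46 CPM, as the only control, the median log2 fold change of the 33 genes was -1.55. That fit has a single control library, its spread comes from the 4 tumours alone, and gland 2 is assumed to vary like them. No gene of any kind passed in it at an adjusted p under 0.05 (0% of 16520). At an unadjusted p under 0.05, 13 of the 33 were lower and none was higher, where 5.9% of all genes were lower.

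**Figure D5:**
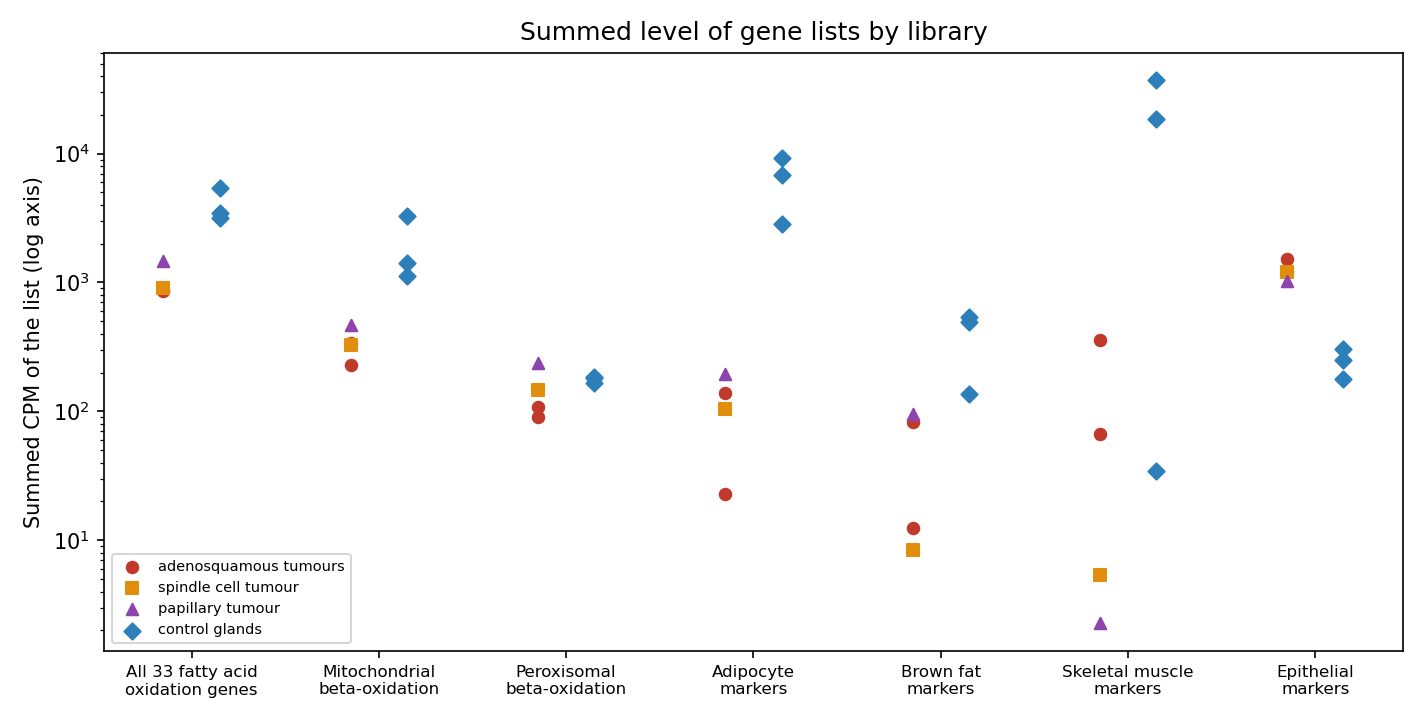
Summed CPM of gene lists in each library, on a log axis, with tumours to the left of the glands within each list. The sum of all 33 genes and the sum of the fat cell markers put all tumours below all glands, the peroxisomal sum overlaps between the groups (89.6 to 236 CPM in the tumours and 165 to 184 CPM in the glands), and the muscle sum is low in gland 2.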

How the data were processed

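RNA of 4 tumours and 3 control glands was sequenced. The labels' protocols name Trizol extraction, DNase I and a TruSeq v2 kit, whose reads carry no strand. The submitters' processing notes list STAR 2.5, RSEM 1.3, limma and the build GRCm38. Their roles and the annotation are not stated in the sources used here. The column that the authors deposited holds estimated counts per gene, which were made before deposit and not scaled to a common total: it is headed TPM, but its sums run from 5148438 to 35631279 and 2.34% to 6.14% of its values are not whole. They were rounded to whole numbers. The counts of libraries within a group differed by more than sampling noise, and no batch or pairing is labelled.

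Genes were tested with edgeR 4.0.16 (quasi-likelihood F test, two-sided, TMM factors 0.551 to 1.605) in R 4.3.3, after filterByExpr (minimum count 10, minimum total 15). P-values were adjusted by Benjamini-Hochberg over all genes tested, with a threshold of 0.05. CPM used TMM-scaled library sizes, and exon lengths came from GENCODE M21. Alternatives were DESeq2 1.42.0, limma-voom (limma 3.58.1), median-ratio and upper-quartile scaling, leaving out genes of the mitochondrial genome, other low-count filters, gland 2 as the only control, and leaving out each library. The code was tested on simulated counts, with changes set in the tumours, or in the papillary tumour alone for the fit between types. Of genes given a log2 change of 2 in either direction, 8% were called for tumours against glands. The share was 16% for adenosquamous tumours and 1% between types. At a log2 change of 4 these shares were 65.7%, 89% and 40%. A gene that did not pass may therefore still differ. Per-library values are printed for genes that passed, for the Cpt1 genes and for the regulators. Those of Acsl1, Acsl4, Acadl, Acaa2, Ehhadh, Hsd17b4 and Eci2 were chosen after their values were seen. Of each neighbouring list, the 2 genes with the smallest p and the largest change the other way are named. The members and lists were chosen with earlier results of these data known.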

Additional observations from a re-analysis of the deposited data

Results flagged for a closer look

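Of the 33 genes checked among the 4 tumours, 1 had a library that stood apart. Acadl was at 38.0 CPM in the spindle cell tumour, against 49.9, 51.8 and 50.8 CPM in tumours 1a, 1b and 4, and its gap to the nearest of them was 0.876 of the range on the log2 scale, above Dixon's 95% critical value. Chance flags about 1 in 20 groups. All 4 tumours were below the lowest gland, at 112 CPM.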

How the results depend on the processing

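Of the 33 genes, 30 kept their direction under every alternative run for tumours against glands, the 12 called ones among them; 15 alternatives were run, or 14 for Cpt1c, Ppara and Ppargc1a, which a filter of at least 10 counts in every library leaves out. The exceptions were not called in the fit of all libraries. Ehhadh (log2 -0.08) was 0.015 with no low-count filter, and with 1 library left out it ran from -2.08 to 0.30, above 0 without tumour 1a, 1b or 3 (0.28, 0.30 and 0.25) or gland 3 (0.19). Decr2 (-0.18) ran from -0.44 without the papillary tumour to 0.032 without tumour 1b, and Eci2 (0.14) from -0.51 without the papillary tumour to 0.40 without tumour 1b. The count of 12 called ran from 3 to 20 with 1 library left out, was 0 with gland 2 as the only control, and lay between 11 and 16 under the other 7 alternatives. The 18 called in adenosquamous tumours became 0 to 17 with 1 library left out. Between tumour types the count of 0 (21 of 16866 genes called) became 6 with DESeq2 (2287 of 16866), 4 with no filter (1494 of 29688), 2 with at least 10 counts in every library (509 of 9300), and 0 to 1 with 1 library left out. The cause was not tested, except that leaving out libraries leaves fewer samples. Tumour 1b and gland 1, with 5420562 and 5148438 counts, give the least precise low values. No paired analysis was run because the labels state no pairing of tumours with glands.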
